A study of Homo sapiens with 6 samples.

Results

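The genes described here are the serpins and the plasminogen activation genes of the AmpliSeq panel, in MCF10A cells made to overexpress GIRK1. Members were taken by symbol, as every amplicon whose gene symbol starts with SERPIN plus PLAU, PLAT, PLAUR and PLG. This gave 39 of 20802 genes, of which 35 are serpins and 4 are plasminogen genes, and the symbol rule itself uses no measured level. The counts below are over 38 of them. MCF10A is a long-established line of human breast epithelial cells that does not form tumours. The 3 lines were the parental line (MCF10A WT), a stable line carrying a plasmid for the green fluorescent protein eGFP alone (MCF10A eGFP) and a stable line carrying the same plasmid with the coding sequence of GIRK1 in front of eGFP (MCF10A GIRK1), with 2 libraries of each. GIRK1, encoded by KCNJ3, is a subunit of G protein-activated inwardly rectifying potassium channels. Both stable lines had been transfected, selected with G418 and sorted on eGFP fluorescence, steps that the parental line did not undergo and which the controls therefore share only in part. The series record counts 2 lines with GIRK1 and 2 without it, but the methods of the study call such samples replicates, so it is not clear whether the 2 libraries of a group are separate lines or repeats of 1. Cells of every line were harvested with trypsin before confluence. GIRK1 was compared with 3 control libraries (eGFP replicates 1 and 2 and WT replicate 2) and, in a second fit, with eGFP alone, and these comparisons share the GIRK1 and eGFP libraries.

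Plasminogen activation turns the zymogen plasminogen (PLG) into plasmin, a protease that degrades fibrin and pericellular matrix. The conversion is carried out by the urokinase-type activator (PLAU), which is held at the cell surface by its receptor (PLAUR), and by the tissue-type activator (PLAT). Serpins are suicide inhibitors that trap a protease by a large change of their own fold, although some family members no longer inhibit proteases and serve as chaperones, hormone carriers or tissue growth regulators. In cultured epithelial cells the activators and their inhibitors are known as secreted products that respond to growth factors, wounding and cell density.

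Promoter sequence is shown for 3 members that carry the activation system below, PLAU as the urokinase activator, SERPINE2 as the inhibitor with the smallest adjusted p, and SERPINB2 as the inhibitor that lies in the serpin cluster on chromosome 18. The windows are the 250 bases before a RefSeq start on GRCh38.p14, written 5′ to 3′ on the strand of the gene, which is plus for PLAU and SERPINB2 and minus for SERPINE2. Capitals mark matches, on either strand, to the AP-1 letters TGANTCA, the TATA letters TATAAA or the GC box letters GGGCGG.
PLAU, chr10:73910882-73911131: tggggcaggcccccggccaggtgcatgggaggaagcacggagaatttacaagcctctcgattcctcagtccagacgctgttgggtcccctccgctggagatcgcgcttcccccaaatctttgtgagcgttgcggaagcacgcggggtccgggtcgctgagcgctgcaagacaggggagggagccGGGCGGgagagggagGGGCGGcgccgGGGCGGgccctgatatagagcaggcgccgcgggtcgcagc
SERPINE2, chr2:224031479-224031728: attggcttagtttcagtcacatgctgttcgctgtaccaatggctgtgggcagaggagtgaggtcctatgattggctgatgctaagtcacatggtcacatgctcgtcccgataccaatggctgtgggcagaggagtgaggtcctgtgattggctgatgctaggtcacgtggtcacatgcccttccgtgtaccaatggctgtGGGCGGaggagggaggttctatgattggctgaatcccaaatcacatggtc
SERPINB2, chr18:63887455-63887704: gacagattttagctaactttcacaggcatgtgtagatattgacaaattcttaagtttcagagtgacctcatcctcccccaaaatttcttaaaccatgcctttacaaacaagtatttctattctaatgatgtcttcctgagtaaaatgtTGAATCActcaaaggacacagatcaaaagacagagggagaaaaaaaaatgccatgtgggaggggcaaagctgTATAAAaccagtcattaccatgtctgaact
The PLAU window, chosen from 2 because 3 annotated starts lie within 50 bases of its own, held 3 GC boxes, at 66, 51 and 40 bases before the start, and the SERPINE2 window held 1, at 50 bases before it. The other PLAU window (chr10:73910360-73910609) held no match to any of the 3. The other SERPINE2 window (chr2:224038641-224038890) held 2 GC boxes, at 230 and 183 bases before its start. It is not printed because 164 of its bases lie in annotated exons. The SERPINB2 window held an AP-1 match 102 bases and a TATA match 30 bases before the start. Of 34943 RefSeq windows of the same length, 6.59% held an AP-1 match, 10.8% a TATA match and 42.5% a GC box. A match to these letters is a description of the sequence and not a measured binding site, and the amplicons do not show which start was used.

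Each amplicon reports 1 gene. The amplicons of the members were 95 to 109 bases long with a GC content of 34.0% to 69.2%, so RPM, the reads of an amplicon scaled to the total of its library, can be compared between libraries for 1 gene, whereas levels of different genes also depend on how well each amplicon was amplified. The 5 libraries compared held 5126930 to 16040556 reads and the library labelled WT replicate 1 held 2506120. The smallest level that can be shown, 3 reads, ran from 0.187 to 1.20 RPM. KCNJ3 had 2408 and 3677 reads in the GIRK1 libraries and 0 in the 3 controls. It had 48 reads in the library labelled WT replicate 1, which also went against its label in its markers. There the luminal markers summed to 13717 RPM, against 390 to 493 RPM in the other libraries, and ESR1, PGR, KRT19 and TFF1, which had no read in the other 5 libraries, were all detected. The basal markers summed to 385 RPM in it and to 7926 to 15564 RPM in the others, with TP63 at 0 in every library. This library is therefore described apart at the end. Fibroblast markers summed to 8.60 to 13.7 RPM in the controls and to 31.9 and 33.5 RPM in GIRK1. PDGFRA was at 0 in every library, and LUM was at 0 in all except eGFP replicate 1. The part of the fibroblast markers in the differences below was not tested. Nothing in the labels says that replicates were separate cultures, so p-values measure only the spread between these libraries.

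Of the 38 members, 15 had no read in any library and 23 had at least 1. The filter on low counts kept 14 of the 23, and the other 9 had at most 10 reads in any of the 5 libraries compared. No member passed the adjusted threshold of edgeR's quasi-likelihood test (Benjamini-Hochberg, 0.05) against the 3 controls, where 1.21% of 11389 genes passed (0.413% lower and 0.799% higher in GIRK1), nor against eGFP, where 1.52% of 11279 passed (0.745% lower and 0.78% higher). The smallest adjusted p was that of SERPINE2 in both, 0.0812 and 0.0621. At an unadjusted p below 0.05, 6 members were lower in GIRK1 and 1 was higher against the 3 controls, out of 14, while 18.7% of all genes tested passed by that measure, 10.2% lower and 8.58% higher. Against eGFP 7 were lower and 2 higher, while 19.2% of all genes passed, 10.8% lower and 8.42% higher. In 7 members both GIRK1 libraries lay below every control library and in 2 above (background 19.5% and 21.6%), and against the eGFP libraries alone these numbers were 8 and 3 (background 25.2% and 29.1%). DESeq2, run on the same libraries and genes, placed 3 members past the adjusted threshold in each comparison, PLAU, SERPINB5 and SERPINE2, all lower in GIRK1. It placed more of all genes past it than edgeR did, 806 of 11389 against the 3 controls and 694 of 11279 against eGFP. The median log2 fold change of the 14 members was -0.78 against the 3 controls and -0.90 against eGFP, whereas the median of all genes tested was -0.01 and 0.01. SERPINA1, SERPINB2 and SERPINF2 met the filter through the controls and SERPINF1 through GIRK1. The filter therefore bears on their directions, on the counts above and on this median. With at least 10 reads in every library these fell out, leaving 10 members. Of these 10, none passed the adjusted threshold by edgeR in either comparison. Of all genes, 110 of 10022 passed it against the 3 controls and 111 of 10025 against eGFP.

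**Figure D1:**
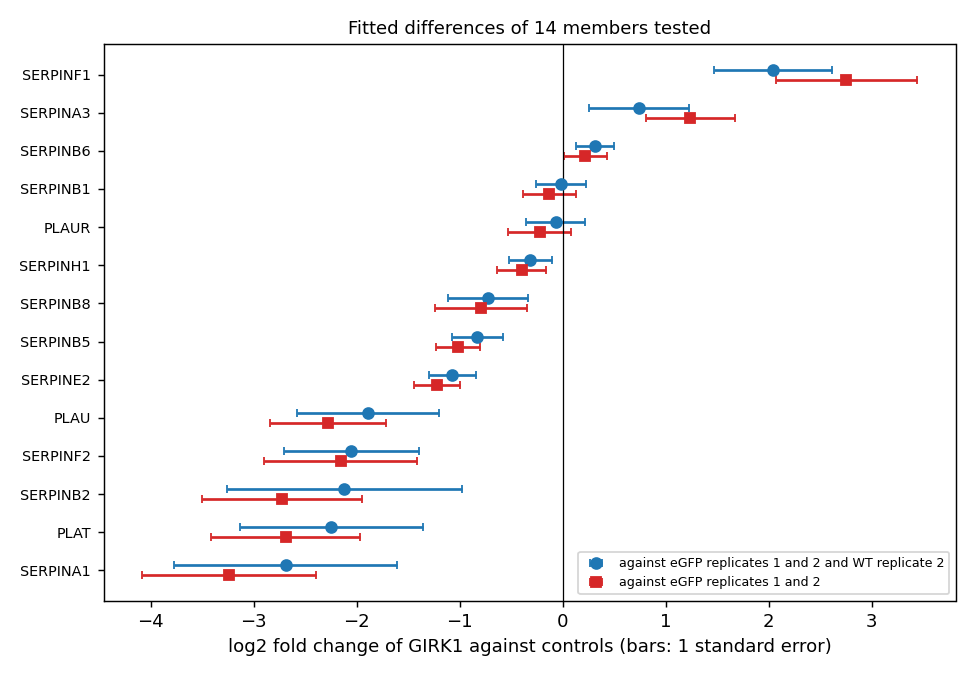
Log2 fold change of GIRK1 against the 3 control libraries (blue circles) and against the 2 eGFP libraries (red squares) for the 14 members tested, from edgeR, with bars of 1 standard error. SERPINA1, PLAT, SERPINB2, SERPINF2 and PLAU sit at or below -1.89 in both fits, PLAUR, SERPINB1 and SERPINB6 sit within 0.31 of 0, and SERPINF1 sits at 2.04 and 2.76, none of them past the adjusted threshold.

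Among the 5 libraries compared, both plasminogen activators had their lowest levels in GIRK1. PLAU, on chromosome 10 (73909177 to 73917497, GRCh38, GENCODE), had 9.27 and 6.28 RPM in the GIRK1 libraries, 54.8 and 18.3 RPM in the eGFP libraries and 12.03 RPM in WT replicate 2, from 65 to 281 reads. Both GIRK1 libraries lay below all 3 controls, and eGFP replicate 1 stood above the rest at 3.00 times eGFP replicate 2. The mean was 7.78 ± 2.11 RPM (SD, n = 2) in GIRK1 and 28.4 ± 23.1 RPM (SD, n = 3) in the controls. This was a log2 fold change of -1.89 (SE 0.69, adjusted p = 0.219, edgeR), with an SD of the controls nearly as large as their mean. Without eGFP replicate 1 it was -0.93 (SE 0.28, adjusted p = 0.0766).

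PLAT, on chromosome 8 (42175233 to 42207724), gave 19.8 and 12.2 RPM in GIRK1, 162 and 34.3 RPM in eGFP and 22.9 RPM in WT replicate 2. The groups did not overlap, but the higher GIRK1 library was only 1.16-fold below the lowest control, and eGFP replicate 1 was 4.74-fold above eGFP replicate 2. Its fitted log2 fold change was -2.25 (SE 0.89, adjusted p = 0.245, edgeR). Without eGFP replicate 1 it was -0.81 (SE 0.27, adjusted p = 0.0970).

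The levels of the receptor overlapped between the groups. PLAUR, on chromosome 19 (43646095 to 43670547), had 15.3 and 18.4 RPM in GIRK1, 22.6 and 15.6 RPM in eGFP and 14.2 RPM in WT replicate 2. The GIRK1 libraries lay inside the range of the controls. Its log2 fold change was -0.07 (SE 0.29, adjusted p = 0.925, edgeR), and its sign turned to 0.20 without eGFP replicate 1. Read against its receptor within a library, PLAU reads were 0.606 and 0.342 per PLAUR read in GIRK1 and 0.850 to 2.42 in the controls, with no overlap. PLG itself, which the liver makes, had 0 reads in all 6 libraries, so the substrate was not detectable at this depth.

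**Figure D2:**
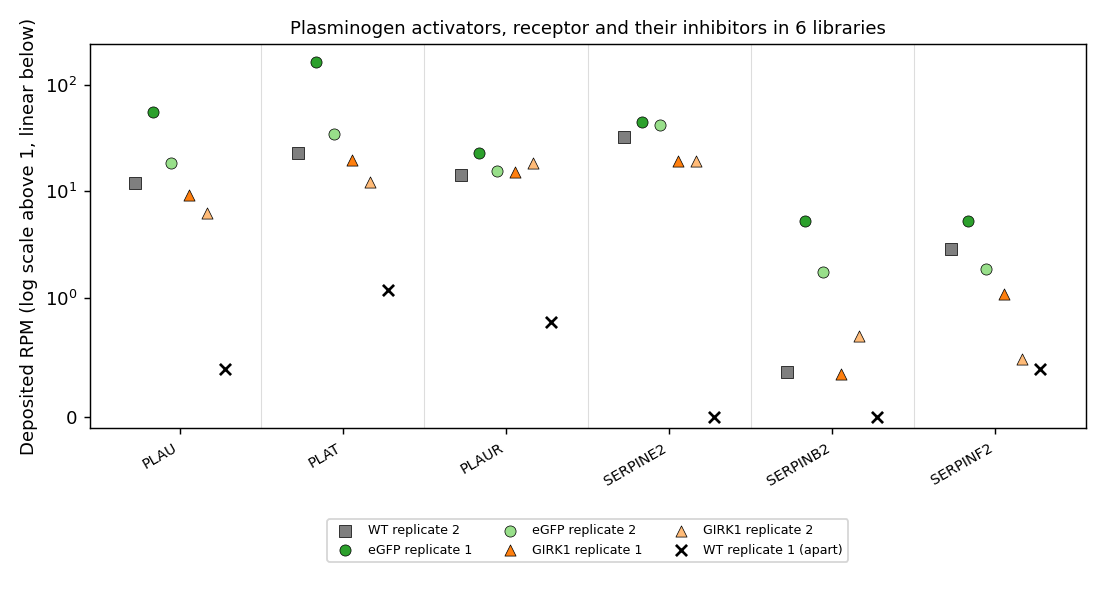
Deposited RPM (log scale above 1, linear below) of the activators PLAU and PLAT, the receptor PLAUR and the inhibitors SERPINE2, SERPINB2 and SERPINF2, 1 point per library, with the library labelled WT replicate 1 as a cross. eGFP replicate 1 is the highest library for all 6 genes, and both GIRK1 points lie below the 3 control points for all except PLAUR and SERPINB2.

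Among the inhibitors of the activators, SERPINE2, which encodes protease nexin-1, an inhibitor of thrombin, urokinase and plasmin, was close between the 2 libraries of GIRK1 and between those of eGFP. It lies on chromosome 2 (223975112 to 224039319, minus strand) and gave 19.1 and 19.3 RPM in GIRK1, 44.9 and 42.0 RPM in eGFP and 32.5 RPM in WT replicate 2. The higher GIRK1 library was 1.68-fold below the lowest control. The mean was 19.2 ± 0.172 RPM (SD, n = 2) against 39.8 ± 6.45 RPM (SD, n = 3), a log2 fold change of -1.07 (SE 0.23, adjusted p = 0.0812, edgeR). Without eGFP replicate 1 it was -0.94 with an adjusted p of 0.0185 by edgeR. In that fit 984 of 11274 genes passed the adjusted threshold, where 1.21% of 11389 passed with all 3 controls. Without eGFP replicate 2 it was -1.05 (adjusted p = 0.272, edgeR), and without WT replicate 2 it was -1.22 (adjusted p = 0.0621, edgeR). Leaving out GIRK1 replicate 1 or 2 gave -1.05 and -1.10.

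The remaining inhibitors of this group were near the limit of counting. SERPINB2, which encodes PAI-2, had 4 and 7 reads in GIRK1 (0.360 and 0.677 RPM), 27 and 18 reads in eGFP (5.27 and 1.76 RPM) and 6 reads in WT replicate 2 (0.374 RPM). Its GIRK1 libraries lay below both eGFP libraries and on either side of WT replicate 2, and its exact (Clopper-Pearson) 95% confidence intervals were 0.0981 to 0.922 and 0.272 to 1.39 RPM in GIRK1. Its fitted log2 fold change was -2.73 (SE 0.78, adjusted p = 0.142, edgeR) against eGFP and -2.12 (SE 1.14, adjusted p = 0.363) against the 3 controls.

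SERPINF2, which encodes α2-antiplasmin, the main inhibitor of plasmin itself, had 12 and 5 reads in GIRK1 (1.08 and 0.483 RPM) and 27, 19 and 46 reads in eGFP replicates 1 and 2 and WT replicate 2 (5.27, 1.86 and 2.87 RPM). The groups did not overlap, although the exact 95% interval of GIRK1 replicate 1, 0.558 to 1.89 RPM, reached that of eGFP replicate 2, 1.12 to 2.90 RPM. In the fit the log2 fold change was -2.05 (SE 0.66, adjusted p = 0.176, edgeR). SERPINA5, the protein C inhibitor, had 0 reads in both GIRK1 libraries and 2, 2 and 8 reads in the controls, and SERPINI1, which encodes neuroserpin, an inhibitor of tissue-type activator, had 3 and 10 reads in GIRK1 and 1 to 6 in the controls. Neither passed the filter on low counts, and no difference was detectable for them at this depth.

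Reads of the activators relative to each other were compared within libraries, since such a ratio does not depend on depth. PLAU reads were 0.468 and 0.516 per PLAT read in GIRK1 and 0.337 to 0.533 in the controls. Both GIRK1 libraries lay inside the range of the controls, but its low end, 0.337, was eGFP replicate 1 alone. WT replicate 2 at 0.526 and eGFP replicate 2 at 0.533 lay above both GIRK1 libraries. Both values fell within the exact 95% intervals of GIRK1, 0.367 to 0.594 and 0.376 to 0.701. The overlap of this ratio thus rests on 1 library, while each activator on its own did not overlap. PLAT reads were 1.04 and 0.630 per SERPINE2 read in GIRK1 and 0.703 to 3.62 in the controls, which overlapped. These ratios also carry the efficiency of each amplicon and are compared only between libraries, and their intervals cover counting error only.

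**Figure D3:**
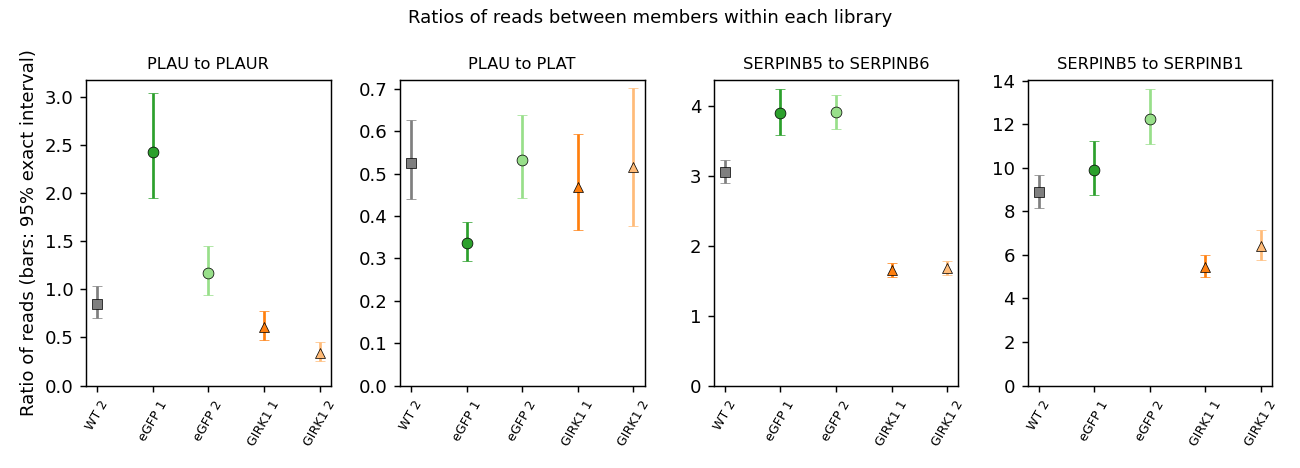
Ratio of reads between 2 members within each library, with exact 95% intervals that cover counting error only, for GIRK1, eGFP and WT replicate 2. PLAU per PLAUR, SERPINB5 per SERPINB6 and SERPINB5 per SERPINB1 are lower in both GIRK1 libraries than in all 3 controls. For SERPINB5 per SERPINB6 this follows from the levels of the 2 genes. For PLAU per PLAT the GIRK1 libraries lie within the range of the controls, whose low end is eGFP replicate 1 alone.

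Clade B serpins act inside cells, apart from a few that are also released. SERPINB5 encodes maspin, an epithelial serpin that does not inhibit proteases and is known as a suppressor of invasion in mammary cells. It lies on chromosome 18 (63476761 to 63505085) and had the most reads of the 38 members in each of the 5 libraries. It gave 259 and 258 RPM in GIRK1, 531 and 480.5 RPM in eGFP and 335 RPM in WT replicate 2, from 2670 to 5377 reads each. The GIRK1 libraries were almost equal and the higher one was 1.29-fold below WT replicate 2, the lowest control. The mean was 259 ± 0.745 RPM (SD, n = 2) in GIRK1 and 449 ± 102 RPM (SD, n = 3) in the controls, a log2 fold change of -0.83 (SE 0.25, adjusted p = 0.162, edgeR). Against eGFP it was -1.01 (SE 0.21, adjusted p = 0.0838).

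SERPINB6 and SERPINB1, which lie together on chromosome 6 and encode intracellular inhibitors of granule and lysosomal proteases, did not follow SERPINB5. SERPINB6 had 158 and 154 RPM in GIRK1 and 109.7 to 137 RPM in the controls, without overlap, and its log2 fold change was 0.31 (SE 0.19, adjusted p = 0.404, edgeR). SERPINB1 had 47.4 and 40.2 RPM in GIRK1 and 37.7 to 53.6 RPM in the controls, with a log2 fold change of -0.02 (SE 0.24, adjusted p = 0.98). SERPINB5 reads were 1.64 and 1.68 per SERPINB6 read in GIRK1 and 3.06 to 3.90 in the controls. That this ratio did not overlap follows from SERPINB5 lying below and SERPINB6 above every control, and is no further result. Per SERPINB1 read they were 5.46 and 6.42 against 8.89 to 12.3, also without overlap. Ratios of other gene pairs were not counted. SERPINB8, an inhibitor of furin-like proteases, had 11.5 and 10.1 RPM in GIRK1 and 10.9 to 25.6 RPM in the controls, which overlapped (log2 fold change -0.73, SE 0.39, adjusted p = 0.363, edgeR).

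**Figure D4:**
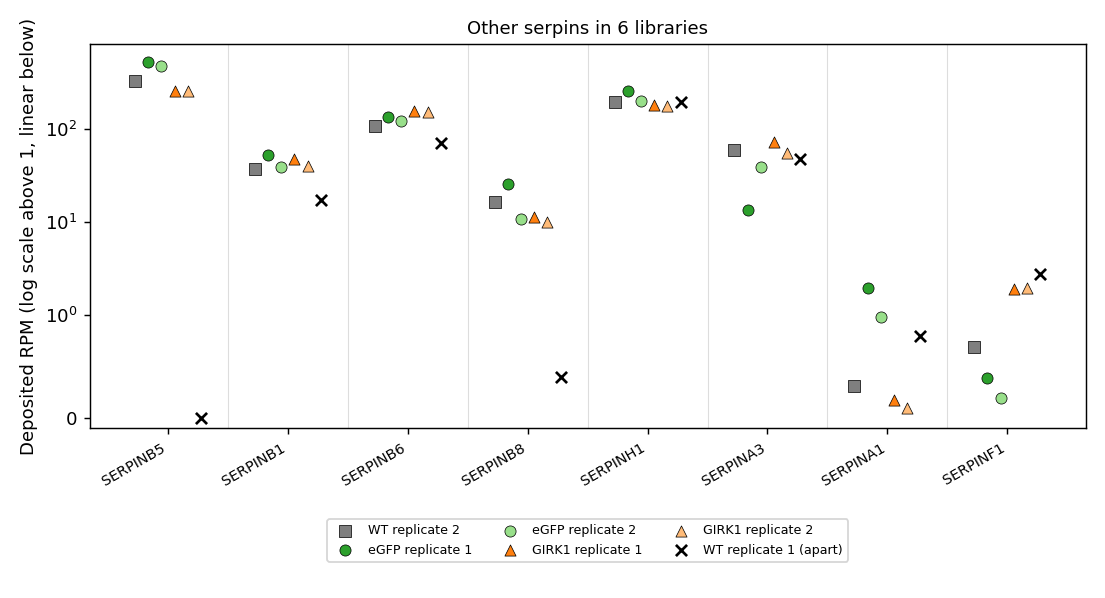
Deposited RPM (log scale above 1, linear below) of 8 further serpins, 1 point per library, with the library labelled WT replicate 1 as a cross. SERPINB5 is tight at 259 and 258 RPM in GIRK1, below all controls, SERPINB6 and SERPINF1 are above all controls in GIRK1, and SERPINB1, SERPINB8 and SERPINA3 overlap.

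The clade B genes fall in 2 genomic clusters, and genes within each ran from well read to hardly read. Chromosome 18 holds 10 members between 63476761 and 64019779, of which 3 were tested (SERPINB5, SERPINB2 and SERPINB8) and 4 had no read in any library (SERPINB4, SERPINB7, SERPINB11 and SERPINB12). Of the rest, SERPINB13 had 1 to 7 reads in each of the 5 libraries, SERPINB3 had at most 3, and SERPINB10 had 7 reads in GIRK1 replicate 2 and at most 1 elsewhere. SERPINB3 and SERPINB4 are near-identical copies, so their reads are uncertain. Chromosome 6 holds 3 members between 2832332 and 2972165, where SERPINB9 had 2 reads, both in the library labelled WT replicate 1. RefSeq gave promoter windows for 8 of the 10 members on chromosome 18, and 6 of them held the AP-1 letters (7 of 11 windows), compared with 9 of 30 members with a window overall and none of 9 members in the clade A cluster. Of these 6, SERPINB7 and SERPINB12 had no read, and SERPINB5, SERPINB2, SERPINB8 and SERPINB13 were read at the levels given above, so members that hold the letters ran from the most to the least abundant of the set.

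Most secreted clade A serpins had no read in these libraries. The cluster on chromosome 14 (94280455 to 94646994) holds 10 members, of which 6 had no read in any library and 2 were tested. SERPINA3, which encodes α1-antichymotrypsin, an acute-phase inhibitor of cathepsin G, gave 73.6 and 55.2 RPM in GIRK1, 13.7 and 39.4 RPM in eGFP and 60.5 RPM in WT replicate 2. GIRK1 lay above both eGFP libraries and overlapped WT replicate 2. A log2 fold change of 0.75 (SE 0.48, adjusted p = 0.448, edgeR) was fitted against the 3 controls and one of 1.24 (SE 0.43, adjusted p = 0.199) against eGFP. Unlike the activators, SERPINA3 had its lowest level in eGFP replicate 1, 0.347 times that of eGFP replicate 2.

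SERPINA1, which encodes α1-antitrypsin, the inhibitor of neutrophil elastase, had 2 and 1 reads in GIRK1 and 10, 10 and 5 reads in eGFP replicates 1 and 2 and WT replicate 2. In RPM these were 0.180 and 0.0970 against 1.95, 0.977 and 0.312, without overlap of the groups, but the exact 95% interval of GIRK1 replicate 1, 0.0218 to 0.650 RPM, took in the level of WT replicate 2. Its log2 fold change of -2.69 (SE 1.08, adjusted p = 0.250, edgeR) rests on 28 reads in all 5 libraries. The cortisol carrier gene SERPINA6 had 5 reads in WT replicate 2, 2 in eGFP replicate 1 and 0 in the others.

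Of the other serpins, SERPINF1 had the largest fitted difference towards GIRK1. SERPINF1 met the filter on low counts through GIRK1, which bears on this direction. It encodes PEDF, a non-inhibitory secreted serpin known to restrain angiogenesis, and lies on chromosome 17 (1761959 to 1777574), close to SERPINF2 (1742836 to 1755268). It had 21 and 20 reads in GIRK1 (1.89 and 1.93 RPM) and 2, 2 and 11 reads in eGFP replicates 1 and 2 and WT replicate 2 (0.390, 0.195 and 0.686 RPM). Both GIRK1 libraries were at least 2.76 times the highest control, and the neighbouring SERPINF2 lay in the opposite direction. Its log2 fold change was 2.04 (SE 0.58, adjusted p = 0.140, edgeR) against the 3 controls and 2.76 (SE 0.68, adjusted p = 0.112) against eGFP. The sum of the fibroblast markers given above was also higher in the GIRK1 libraries than in the controls. Levels of the single markers are not given here, and the relation of this sum to SERPINF1 was not tested.

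SERPINH1 encodes HSP47, the collagen chaperone of the endoplasmic reticulum, and is the serpin that was most alike in all 6 libraries. It gave 183 and 179 RPM in GIRK1, 259.8 and 201 RPM in eGFP, 199 RPM in WT replicate 2 and 196 RPM in the library labelled WT replicate 1. The GIRK1 libraries lay below all controls by 1.09-fold or more, and the log2 fold change was -0.31 (SE 0.21, adjusted p = 0.465, edgeR). SERPING1, the inhibitor of the complement proteases C1r and C1s, had 0 and 3 reads in GIRK1 and 1 to 8 in the controls. Antithrombin (SERPINC1) had 1 read in each of 2 libraries, and heparin cofactor II (SERPIND1), SERPINE3 and SERPINI2 had none.

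The study selected genes by a fold rule, which was applied here to RPM of GIRK1 and eGFP as means at least 2-fold apart with a coefficient of variation (SD over mean) below 0.7 in each group. By this rule 3 of the 22 members with a read in these 4 libraries were lower in GIRK1 (SERPINE2, SERPINF2 and SERPINA1) and 2 were higher (SERPINA3 and SERPINF1). Over all 14893 genes with a read the rule selected 4.58% as lower and 4.21% as higher. PLAU, SERPINB2 and PLAT differed by over 2-fold and missed the rule on the coefficient of the eGFP libraries, which was 0.707, 0.706 and 0.921. The rule has no test, and with the 3 pooled controls in place of eGFP it selected 3 members in place of 5.

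Genes that work with the members were read from 5 lists by function, of which 44 genes were tested. Past the adjusted threshold, 2 of them were higher in GIRK1 and none was lower, in both fits, while of all genes 0.799% were higher and 0.413% lower against the 3 controls, and 0.78% and 0.745% against eGFP. Both were C1R and C1S, the complement proteases that SERPING1 inhibits. C1R, on chromosome 12 (7080199 to 7092607), had 71.1 and 55.9 RPM in GIRK1 and 3.90 to 9.85 RPM in the controls, and rose by a log2 fold change of 3.18 (SE 0.33, adjusted p = 0.00777, edgeR). C1S, also on chromosome 12 (6988259 to 7071032), had 27.1 and 17.5 RPM in GIRK1 and 1.56 to 3.62 RPM in the controls, and rose by 2.98 (SE 0.39, adjusted p = 0.0178, edgeR). Both groups were apart for each gene, while their inhibitor SERPING1 had at most 8 reads in any library. These 2 calls were lost when any of eGFP replicate 2, GIRK1 replicate 1 or GIRK1 replicate 2 was left out, where no partner gene passed.

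Of 12 plasminogen receptors and partners of the urokinase receptor, 5 were lower and none higher in GIRK1 at an unadjusted p below 0.05 against the 3 controls, where 10.2% of all genes were lower and 8.58% higher, and none passed the adjusted threshold. ANXA2 and S100A10, subunits of a plasminogen and PLAT receptor complex at the cell surface, are among the 5, and ENO1 and PLGRKT, other plasminogen receptors, are not. These 4 were chosen for mention after their values were seen. ANXA2 had 16.7 and 13.7 RPM in GIRK1 and 25.1 to 44.9 RPM in the controls (log2 fold change -1.19, SE 0.31, adjusted p = 0.125, edgeR). S100A10 had 86.3 and 85.3 RPM in GIRK1 and 126 to 258 RPM in the controls (-1.07, SE 0.36, adjusted p = 0.189). ENO1 had a log2 fold change of 0.05 (SE 0.17) and PLGRKT one of -0.27 (SE 0.27). Of 5 clearance receptors of the LDL receptor family, which internalise inhibitor complexes, none passed at an unadjusted p below 0.05 against the 3 controls. Of 13 proteases, 5 were higher and 1 was lower by that measure, C1R and C1S among them, of 10 other protease inhibitors 1 was higher, and of 4 thrombin and plasmin receptors 2 were lower. The median log2 fold change of the 44 genes was -0.11, compared with -0.78 for the 14 members, on which the filter bears, and -0.01 for all genes.

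**Figure D5:**
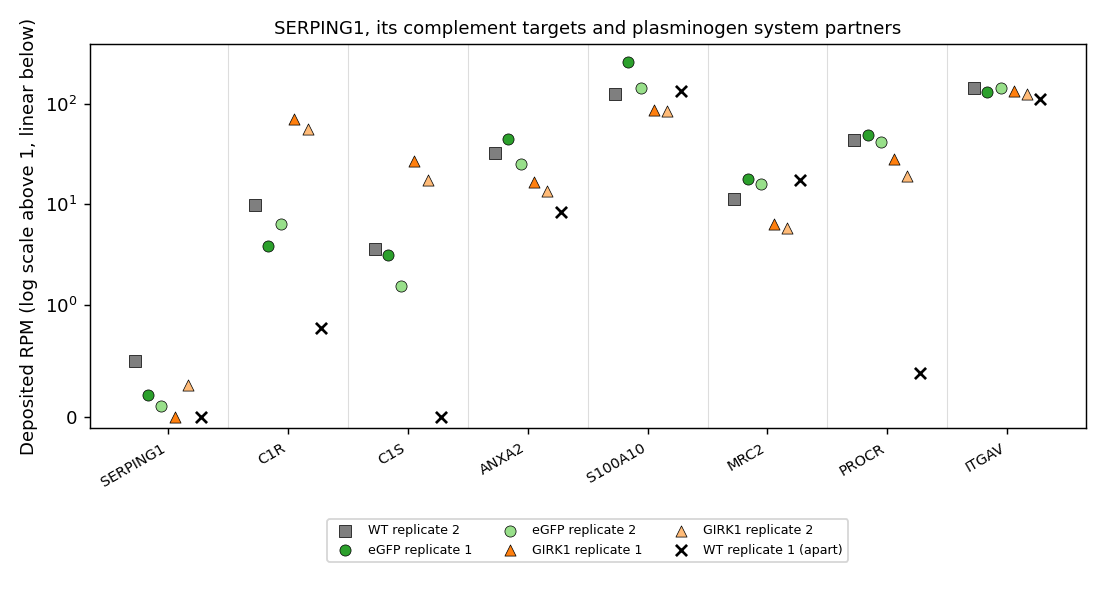
Deposited RPM (log scale above 1, linear below) of SERPING1, the complement proteases it inhibits (C1R, C1S), the plasminogen receptor subunits ANXA2 and S100A10, and MRC2, PROCR and ITGAV from the partner lists, 1 point per library, with the library labelled WT replicate 1 as a cross. C1R and C1S are higher in both GIRK1 libraries than in every other library, ANXA2, S100A10, MRC2 and PROCR are lower in GIRK1 than in the 3 controls without passing the adjusted threshold, and ITGAV has similar values throughout.

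The library labelled WT replicate 1 had few or no reads of the activators and of several serpins, while others were plainly present. SERPINB5 had 0 reads there, and the mean of the 3 controls was 375 times the level of 3 reads in this library. SERPINE2 also had 0 reads, and its control mean was 33.3 times that level. These are not strict lower bounds, since the exact 95% interval of 0 reads there reached 1.47 RPM and 3 reads are 1.20 RPM. PLAT had 3 reads, PLAUR 2, and PLAU and SERPINB8 1 each. In contrast, SERPINH1 at 196 RPM, SERPINB6 at 70.6 RPM, SERPINA3 at 48.3 RPM and SERPINB1 at 17.6 RPM were well detected. SERPINA5 and SERPINF1 were higher than in the controls, at 7.18 RPM from 18 reads and 2.79 RPM from 7 reads. When this library was added to the controls, 1 member had an unadjusted p below 0.05, compared with 7 without it. Calls fell over all genes too. With it added 7 of 11546 genes passed the adjusted threshold by edgeR, where 1.21% of 11389 passed without it. The share of all genes at an unadjusted p below 0.05 is not given for this fit.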

How the data were processed

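RNA of 6 libraries labelled MCF10A was measured by Ion AmpliSeq Transcriptome sequencing. The authors used the Ion Torrent software to map reads to the transcriptome reference of the panel (the version of the software is not given in the sources used here). The authors deposited, for each of 20812 amplicons, whole-number read counts, which are not normalized, and RPM, which is each count scaled to the total reads of its library. Handling of reads from near-identical copies is not given in the sources used here. Dropping 10 spike-in amplicons with 0 reads left 20802 genes.

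Groups and replicate numbers came from the labels. Counts were tested over the whole table with edgeR 4.0.16 in R 4.3.3 (TMM, filterByExpr, glmQLFit and glmQLFTest, Benjamini-Hochberg at 0.05), and DESeq2 1.42.0 was an alternative. Procedures were tested on simulated counts. Intervals of RPM are exact 95% binomial intervals and, with the floor of 3 reads, cover counting error only. Gene positions are from GENCODE v29 (GRCh38), matched by symbol for all 38 members described, and promoters from RefSeq for 30 of them. Windows that overlapped annotated exons by more than 30 bases, and the promoter of PLAT, were not printed. Of the 39 members, 1 is not reported here, though it stayed in every fit.

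The members, gene lists and tests were chosen with earlier results of these data known. Members with a mean of at least 10 reads over the 5 libraries were named with values, and those past an adjusted or unadjusted p of 0.05, or not overlapping, with full statistics. Partner genes were named where they passed the adjusted threshold, and ENO1, PLGRKT, ANXA2, S100A10, MRC2, PROCR and ITGAV were added after their values were seen. Alternatives were other normalizations, filters, the DESeq2 test, the replicate number as a block, leaving out each library and adding WT replicate 1. The names of the deposited data carry one tag for the GIRK1 libraries and another for the other 4, and if the tag marks a run, the run cannot be told apart from GIRK1. Forward and reverse read columns were not used here.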

Additional observations from a re-analysis of the deposited data

Results flagged for a closer look

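SERPINA5 stood out in the library labelled WT replicate 1, which none of the comparisons above uses. It had 7.18 RPM there from 18 reads (exact 95% interval 4.26 to 11.4 RPM), above the 0.195 to 0.499 RPM of the 3 control libraries. The luminal markers of that library, given above, move with this value, and their part in it was not tested.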

How the results depend on the processing

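Directions held for 12 of the 14 members in every alternative in which they were tested. PLAUR and SERPINB1, whose differences are near 0, changed sign, and SERPINB8 against eGFP came to -0.00885 without eGFP replicate 1, from -0.79. Leaving out 1 library moved SERPINA3 against eGFP from 0.72 to 2.13 and SERPINF2 from -2.85 to -1.21, the values nearest 0 without eGFP replicate 1. Against the 3 controls (log2 fold change), leaving out 1 library gave -0.22 to 0.20 for PLAUR and -0.13 to 0.20 for SERPINB1, both at 0.20 without eGFP replicate 1. WT replicate 1 added gave 0.29 and 0.22, and SERPINB1 was 0.0163 with total reads and 0.00317 with at least 10 reads in every library. Against eGFP the ranges were -0.53 to 0.12 and -0.39 to 0.17, the highest again without eGFP replicate 1.

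The count of members past the adjusted threshold depended on the method, from 0 by edgeR. Against the 3 controls it was 1 without the filter on low counts (SERPINE2), where 374 of 15206 genes passed. With DESeq2 it was 3, where 806 of 11389 genes passed. Leaving out 1 control library gave 0 to 1, the 1 being SERPINE2 without eGFP replicate 1, where 984 of 11274 genes passed. Against eGFP it was 6 without the filter, 3 with DESeq2 and 0 to 9 when 1 library was left out, 4 without eGFP replicate 1 and 9 without eGFP replicate 2, which leave eGFP with 1 library that is assumed to vary like GIRK1. Partner genes past the adjusted threshold against the 3 controls, 2 by edgeR, numbered 6 with DESeq2. They numbered 0 to 8 when 1 control library was left out (8 without eGFP replicate 1) and 0 with WT replicate 1 added. The fold rule, which selected 5 members, selected 3 with pooled controls, 3 at 3-fold and 10 with no limit on the coefficient. For the 3 controls, 1.21% of 11389 genes passed as reported. Across the alternatives, all genes past the threshold ran from 7 (WT replicate 1 added) to 984 (without eGFP replicate 1). For eGFP, 172 passed as reported. With 2 libraries kept in each group, this ran from 111 (at least 10 reads in every library) to 881 (without the filter). The cause of these shifts was not tested.

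With the replicate number as a block, 4 members passed against the 3 controls (PLAT, PLAU, SERPINE2 and SERPINF2), where 558 of 11389 genes passed. Against eGFP 3 members passed (PLAT, PLAU and SERPINE2), where 590 of 11279 genes passed. In both fits more of all genes passed than without the block, so the rise was not particular to the members. Of the partner genes, 6 passed against the 3 controls. The labels give only a number, and the deviations of the eGFP and GIRK1 libraries of the same number correlated at 0.193 across 9212 genes, those of eGFP and WT at 0.130 and those of GIRK1 and WT, one of which goes against its label, at 0.0362. With 2 numbers only, and no shared culture or day in the labels, the pairing is not established by the design. Members with under about 10 reads in every library have counting intervals too wide to read a difference from.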
